A study of Arabidopsis thaliana with 6 samples.

Results

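Glucosinolates are sulfur-rich defence compounds of *Arabidopsis* and its relatives. Aliphatic ones are built from methionine whose side chain is first lengthened, and indole ones from tryptophan. Both then pass through a shared set of core steps, and plants move the finished compounds into fruits and seeds. The 40 genes described here cover chain elongation, the core pathway, side-chain modification, the GTR transporters and the MYB regulators. They were taken by locus from a matrix of 37336 genes, and each of the 40 has a row in it. Of these, 38 had a mean normalized count of at least 10 over the 6 libraries and were tested. The other two are GSTF11 and MYB122.

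Polyadenylated RNA came from self-pollinated siliques collected 1 to 5 days after pollination, so each library mixes fruit wall, seed coat, endosperm and embryo. There were 3 libraries of the double mutant that carries the eml1-2 and eml3-4 alleles, called *eml1 eml3* here, and 3 libraries of the wild type (WT). EML proteins are histone readers, and the study asks how they keep seeds from developing before fertilization. The labels do not say whether libraries came from separate plants, so the tests measure the spread between these libraries, which may be technical. In bulk RNA, fewer cells of a type and less RNA per cell cannot be told apart. The labels name no accession for either genotype, so an effect of the eml alleles and a difference of strain background cannot be told apart.

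Recovered depth was 26771227 to 39246167 reads per library. EML3 had 190, 173 and 198 normalized counts in *eml1 eml3*, against 2255, 2129 and 2718 in WT. EML1 had 1236, 1123 and 1072 in *eml1 eml3*, against 1190, 1289 and 1365 in WT, and these sums over all exons leave the eml1-2 allele unchecked. All marker lists of fruit and seed tissues were detected. Summed markers of silique wall and seed coat lay between 5593 and 6716 and between 14785 and 19063 over all libraries. Within the silique wall list, SHP1, a regulator of the valve margin, fell in *eml1 eml3* (log2 change -0.53, limma adjusted p = 0.0273). AGL8, a regulator of the valves, had 2354 to 2519 in *eml1 eml3* and 1724 to 2142 in WT and did not pass. The part of fruit wall makeup in the results below was not tested. Pollen markers summed to 2046 to 3458 in *eml1 eml3* and to 3936 to 10583 in WT, and the part of pollen in the results below was not tested. *eml1 eml3* replicate 3 stood apart. Its 10 seed storage genes summed to 69994, against 307 to 325 in the other *eml1 eml3* libraries and 289 to 662 in WT, and each of the 10 was highest there. Calls that turn on that library are given with and without it.

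Of the 38 tested genes, 7 passed the threshold of 0.05 in the limma fit over all genes, 4 higher and 3 lower in *eml1 eml3*. The higher ones were MAM1, SOT16, AOP2 and MYB29, and the lower ones were MAM3, AOP1 and AOP3. Over all 21751 tested genes 6.79% passed, 3.69% higher and 3.10% lower. That is 802 higher and 674 lower, or 615 and 863 after rescaling every library to one total. The genes were chosen with this contrast known, so the counts, folds and calls describe them and support nothing further. Groups did not overlap for 14 of the 38, 8 with *eml1 eml3* above WT and 6 below, against 26.9% of all tested genes, made up of 14.0% above and 12.8% below. The median log2 change was 0.06 for the 38 and 0.0032 for all tested genes. The sign in the authors' deposited table was the same as here for 36 of the 38. The exceptions, IPMI2 and MYB51, did not pass here.

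**Figure D1:**
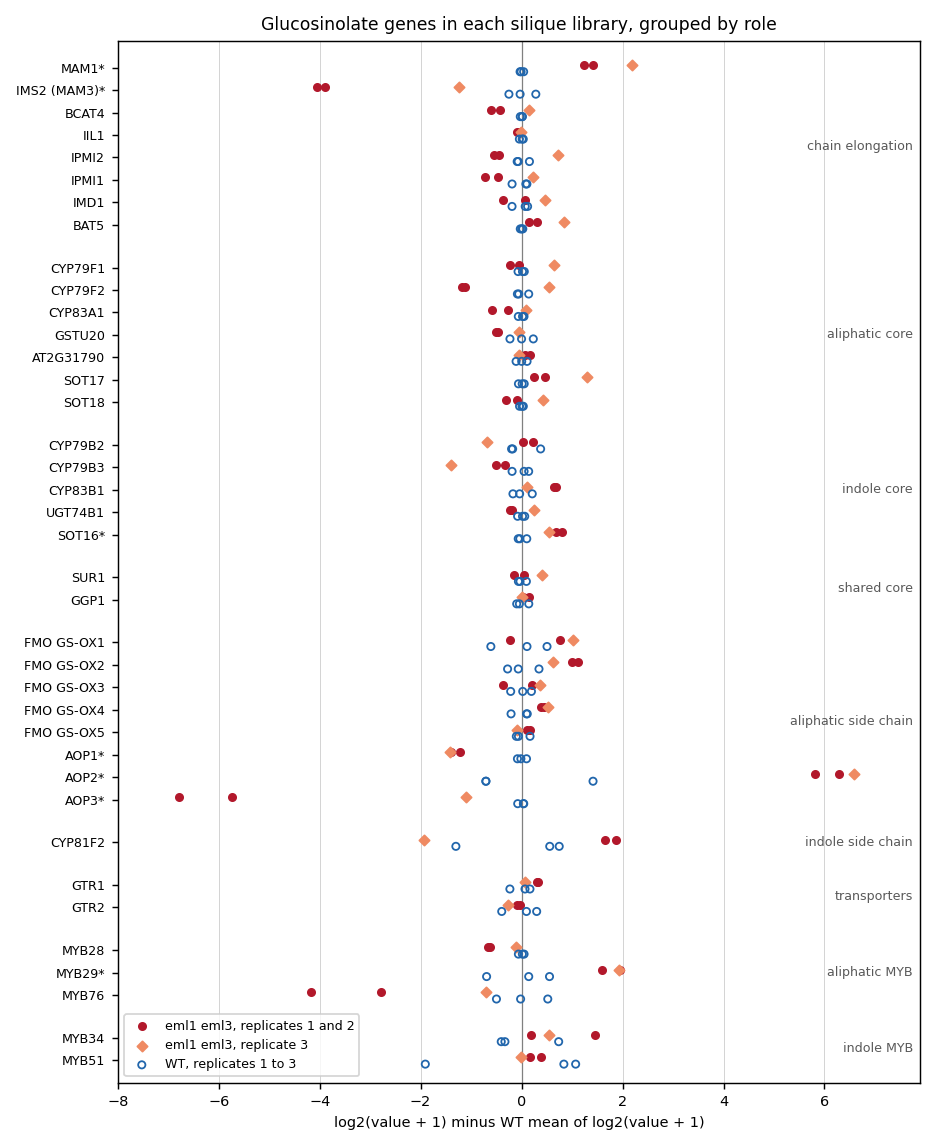
Each row is a tested glucosinolate gene, and the x axis is log2(value + 1) minus the WT mean. Filled red points are *eml1 eml3* replicates 1 and 2, orange diamonds are *eml1 eml3* replicate 3, open blue points are WT, and asterisks mark the 7 genes past the threshold. Most rows lie near 0, and AOP2, AOP3, MAM3 and MYB76 lie farthest from it.

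Chain elongation opens the aliphatic branch. MAM1 and MAM3 encode methylthioalkylmalate synthases that add carbon to the methionine side chain. MAM1 makes short chains, and MAM3 can make chains of all lengths. The pair moved in opposite directions. MAM1 (AT5G23010) had 1400, 1577 and 2679 normalized counts in *eml1 eml3*, against 579, 608 and 587 in WT. Every *eml1 eml3* library was above every WT library, and replicate 3 was the highest. The means were 1885 ± 693 and 592 ± 15.0 (SD, n = 3 each), 3.19-fold higher in *eml1 eml3*, a log2 change of 1.61 ± 0.21 (SE).

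MAM3 (AT5G23020, IMS2 in the reference) had 11.4, 10.1 and 76.9 normalized counts in *eml1 eml3*, against 224, 180 and 154 in WT. The groups did not overlap, and *eml1 eml3* replicate 3 lay between the other *eml1 eml3* libraries and WT. The log2 change was -3.07 ± 0.67 (SE), or -3.98 without *eml1 eml3* replicate 3. The call was lost without any one of the other 5 libraries (-3.20 to -2.58) and in edgeR (-2.55). MAM1 kept its call under all 17 alternatives. Per kb of exon, MAM1 stood at 682, 769 and 1306 in *eml1 eml3* and at 282, 297 and 286 in WT. On that scale MAM3 stood at 6.21, 5.54 and 42.0 in *eml1 eml3* and at 122, 98.5 and 84.4 in WT.

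The other 6 chain elongation genes did not pass. BCAT4, which removes the amino group of methionine at the first step, had 1005, 1140 and 1696 in *eml1 eml3*, against 1540, 1500 and 1542 in WT. IIL1, the large subunit of the isomerase, had 6443 to 6760 in *eml1 eml3* and 6624 to 6986 in WT. IPMI2 and IPMI1 encode its small subunits. IPMI2 had 1018, 1091 and 2436 in *eml1 eml3*, against 1652, 1416 and 1396 in WT. IPMI1 had 751, 895 and 1453 in *eml1 eml3*, against 1316, 1335 and 1089 in WT. For both, *eml1 eml3* replicate 3 was above every WT library and the other *eml1 eml3* libraries were below. The dehydrogenase gene IMD1 had 1915, 2569 and 3384 in *eml1 eml3*, against 2668, 2582 and 2154 in WT. BAT5, which carries the keto acids into the plastid, had 487, 542 and 786 in *eml1 eml3*, against 439, 446 and 431 in WT. Its groups did not overlap, yet it did not pass.

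In the aliphatic core 0 of 7 tested genes passed in limma, edgeR or DESeq2. An unadjusted p under 0.05 was reached by 1 gene in limma, and by 4684 of all 21751 tested genes. Their log2 changes ran from -0.58 to 0.66. CYP79F1 and CYP79F2 convert chain-elongated methionine to aldoximes. CYP79F1 had 1234, 1398 and 2267 in *eml1 eml3*, against 1511, 1387 and 1475 in WT. CYP79F2 had 91.7, 88.1 and 294 in *eml1 eml3*, against 221, 193 and 189 in WT. For both genes *eml1 eml3* replicate 3 was above every WT library, while for CYP79F2 the other *eml1 eml3* libraries were below every WT library.

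CYP83A1, which oxidises the aldoximes, had 3653, 4573 and 5849 in *eml1 eml3*, against 5676, 5563 and 5249 in WT. GSTU20, a glutathione transferase gene, had 2985, 2925 and 4019 in *eml1 eml3*, against 4862, 4139 and 3529 in WT. Glucose transfer and sulfation finish the core structure. AT2G31790, annotated as a glycosyltransferase, had 842 to 978 in *eml1 eml3* and 812 to 944 in WT. SOT17 had 377, 441 and 780 in *eml1 eml3*, against 305, 321 and 330 in WT, with no overlap. SOT18 had 1724 to 2859 in *eml1 eml3* and 2079 to 2188 in WT. SOT17 and SOT18 sulfate methionine-derived compounds. GSTF11 was listed at 0 in all 6 libraries. In the reference, 100% of its exon bases also lie in exons of a neighbour on the opposite strand, so its level cannot be read here.

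*eml1 eml3* replicate 3 was the highest of the *eml1 eml3* libraries for 14 of the 15 tested genes of chain elongation and the aliphatic core. Over all tested genes that share was 40.1%. The median log2 ratio of that library to the mean of the other *eml1 eml3* libraries was 0.66 for the 15 genes and -0.014 for all tested genes. Among single genes the ratio was 2.31-fold for IPMI2, 3.27-fold for CYP79F2 and 7.15-fold for MAM3, but only 1.03-fold for IIL1. AT2G31790 was the exception, at 0.89-fold. This library is the one with high seed storage transcripts, and the part of those transcripts' source in these values was not tested.

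Without *eml1 eml3* replicate 3, 1 of the 15 genes was called higher and 7 lower in *eml1 eml3*, where 12.1% of all tested genes passed. The genes called lower were MAM3, BCAT4, IPMI1, IPMI2, CYP79F2, CYP83A1 and GSTU20. Apart from MAM3 their log2 changes then ran from -1.15 for CYP79F2 to -0.43 for CYP83A1. MAM1 stayed higher, at 1.33. Over the 38 tested genes the count rose to 16 without that library, 6 higher and 10 lower.

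**Figure D2:**
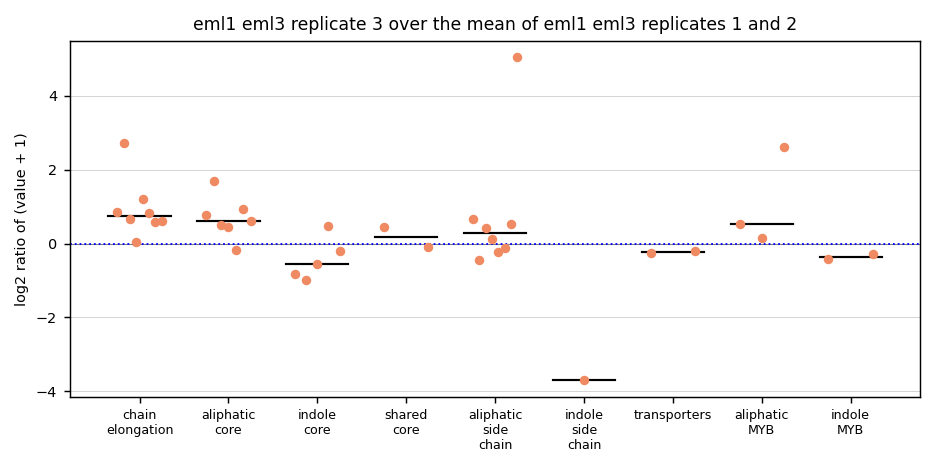
Points are tested glucosinolate genes, grouped by role along the x axis, and the y axis is the log2 ratio of *eml1 eml3* replicate 3 to the mean of *eml1 eml3* replicates 1 and 2, after adding 1. Black bars are medians and the dotted line is the median of all tested genes, at -0.014; the medians were 0.74 for chain elongation, 0.61 for the aliphatic core and -0.56 for the indole core.

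The indole core, as grouped here, had 1 call among 5 genes, where 6.79% of all tested genes passed. SOT16 (AT1G74100), a sulfotransferase that prefers indole substrates, had 1589, 1467 and 1326 in *eml1 eml3*, against 976, 888 and 868 in WT. All *eml1 eml3* libraries were above all WT libraries. The means were 1461 ± 132 and 911 ± 57.5 (SD, n = 3 each), 1.6-fold higher in *eml1 eml3*, a log2 change of 0.68 ± 0.13 (SE). The call was lost without WT replicate 2 (0.66), without *eml1 eml3* replicate 1 (0.62) and without *eml1 eml3* replicate 2 (0.67).

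CYP79B2 and CYP79B3, which convert tryptophan to indole acetaldoxime, did not pass. CYP79B2 had 278, 243 and 147 in *eml1 eml3*, against 210, 310 and 207 in WT. CYP79B3 had 38.1, 33.4 and 17.6 in *eml1 eml3*, against 41.9, 52.9 and 49.6 in WT, and the groups did not overlap. CYP83B1, the next enzyme, had 1444, 1407 and 968 in *eml1 eml3*, against 802, 880 and 1046 in WT. It passed only without *eml1 eml3* replicate 3, at a log2 change of 0.66 against 0.47 ± 0.18 (SE) with all libraries. UGT74B1, a glucosyltransferase of the core that is not specific to the indole branch, had 842 to 1177 in *eml1 eml3* and 940 to 1036 in WT. CYP81F2, which hydroxylates the indole ring, was low, at 30.8, 26.3 and 1.26 in *eml1 eml3* and 2.52, 11.8 and 13.5 in WT. Of 8 tested genes grouped here as indole, 1, UGT74B1, was highest in replicate 3 among the *eml1 eml3* libraries. This was unlike the chain elongation and aliphatic core genes. In replicate 3, 6 of the 8 were lowest, as were 8885 of all 21751 tested genes. Of the 8 aliphatic side-chain genes 5 were highest and 3 lowest in that library, and of the 3 aliphatic MYB genes 2 and 0. The difference between the branches was not tested.

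Of the steps shared by both branches, SUR1, the C-S lyase, had 2045 to 2989 in *eml1 eml3* and 2176 to 2427 in WT. GGP1, a gamma-glutamyl peptidase, had 2821 to 3127 in *eml1 eml3* and 2635 to 3109 in WT. Their log2 changes were 0.10 ± 0.15 and 0.06 ± 0.11 (SE), and neither passed.

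The side-chain genes AOP2 and AOP3 had the widest log2 changes of the 38. AOP1, AOP2 and AOP3 lie close together on chromosome 4 and encode related dioxygenases. AOP2 makes alkenyl and AOP3 hydroxyalkyl side chains, while no activity is assigned to AOP1. The reference annotation calls AOP2 a transcribed pseudogene, truncated in Columbia, and describes AOP3 as silent in Columbia leaves and transcribed in Landsberg erecta. Such natural variants are well known at this locus.

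AOP2 (AT4G03060) had 90.9, 127 and 156 normalized counts in *eml1 eml3*, against 3.35, 0 and 0 in WT. All its WT reads, 4 in number, came from replicate 1, against 361 reads over the *eml1 eml3* libraries. The means were 125 ± 32.7 and 1.12 ± 1.94 (SD, n = 3 each), 111-fold higher in *eml1 eml3*, and the log2 change was 6.23 ± 0.83 (SE). The call held under all 17 alternatives.

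AOP3 (AT4G03050) had 13.8, 6.08 and 363 in *eml1 eml3*, against 808, 804 and 744 in WT. It was lower in every *eml1 eml3* library, but replicate 3 was 36.5-fold above the mean of the others. The log2 change was -4.55 ± 1.11 (SE), and -6.26 without *eml1 eml3* replicate 3. The call was lost without any one of the other 5 libraries (-4.58 to -3.42), in edgeR (-2.67), in DESeq2 (-2.62) and with a robust variance prior.

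AOP1 (AT4G03070) had 158, 179 and 155 in *eml1 eml3*, against 413, 446 and 393 in WT. The means were 164 ± 13.2 and 417 ± 26.4 (SD, n = 3 each), 2.54-fold lower in *eml1 eml3*, with a log2 change of -1.34 ± 0.20 (SE) and a call under all 17 alternatives. *eml1 eml3* replicate 3 did not stand apart for AOP1. Per kb of exon, AOP3 was the highest of the AOP genes in each WT library, at 413 to 449, with AOP1 at 322 to 365. In *eml1 eml3* replicates 1 and 2 AOP1 was the highest, at 129 and 147, and AOP2 next, at 43.4 and 60.4. In *eml1 eml3* replicate 3 the order was AOP3 at 202, AOP1 at 127 and AOP2 at 74.6. The authors' deposited table gave AOP1, AOP2 and AOP3 log2 changes of -1.35, 6.63 and -2.62.

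**Figure D3:**
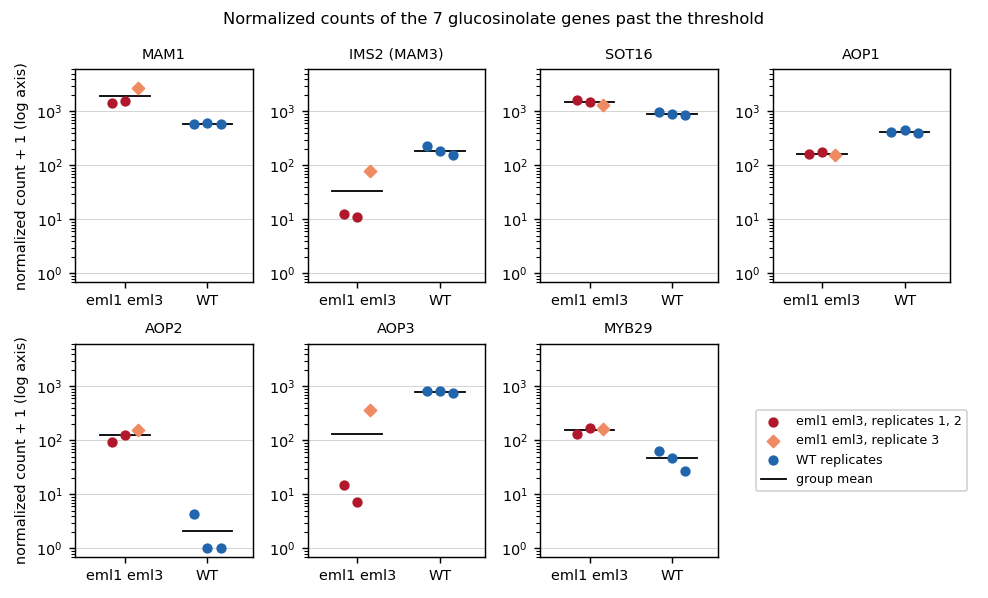
Each panel shows a glucosinolate gene past the threshold, with the normalized count plus 1 on a log axis, *eml1 eml3* libraries on the left, WT libraries on the right and bars at group means. For MAM3 and AOP3, *eml1 eml3* replicate 3 lies at 76.9 and 363, between the other *eml1 eml3* libraries and WT.

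FMO GS-OX1 to FMO GS-OX5 oxidise the sulfur of the aliphatic side chain, and none of the 5 passed. FMO GS-OX2 had 383, 352 and 271 in *eml1 eml3*, against 169, 224 and 145 in WT. Its groups did not overlap, and its log2 change of 0.91 ± 0.24 (SE) passed under 5 of the 17 alternatives. Among these was the fit without *eml1 eml3* replicate 3, which called it higher (1.05). FMO GS-OX4 had 880, 917 and 973 in *eml1 eml3*, against 721, 583 and 728 in WT, also without overlap. FMO GS-OX1 had 182, 363 and 435 in *eml1 eml3*, against 139, 229 and 302 in WT, with overlap. The other log2 changes were 0.07 ± 0.21 for FMO GS-OX3 and 0.06 ± 0.14 for FMO GS-OX5 (SE). For FMO GS-OX5, 49.5% of the exon bases overlap other genes, so its value is uncertain.

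GTR1 and GTR2 import glucosinolates into cells and are needed to load seeds. Neither passed. GTR1 had 3093, 3061 and 2569 in *eml1 eml3*, against 2101, 2767 and 2586 in WT. GTR2 had 2140, 2063 and 1831 in *eml1 eml3*, against 1671, 2346 and 2700 in WT. Groups overlapped for both.

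MYB28, MYB29 and MYB76 activate the aliphatic genes, and MYB34, MYB51 and MYB122 the indole genes. MYB29 (AT5G07690) had 130, 168 and 164 in *eml1 eml3*, against 62.9, 47.0 and 25.9 in WT. Every *eml1 eml3* library was above every WT library. The means were 154 ± 21.0 and 45.3 ± 18.5 (SD, n = 3 each), 3.4-fold higher in *eml1 eml3*, a log2 change of 1.82 ± 0.39 (SE). When each library was left out in turn, the call was lost without WT replicate 2 (1.89), without *eml1 eml3* replicate 1 (1.94) and without *eml1 eml3* replicate 2 (1.75).

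MYB28 had 663, 678 and 961 in *eml1 eml3*, against 1000, 1056 and 1081 in WT. It was lower in every *eml1 eml3* library, but its log2 change of -0.47 ± 0.16 (SE) passed only without *eml1 eml3* replicate 3 (-0.64). MYB76 was low, at 1.62, 0 and 10.1 in *eml1 eml3* and 16.8, 11.8 and 24.8 in WT, and did not pass. Per kb of exon MYB28 was the highest of the trio in each library, at 335 to 486 in *eml1 eml3* and 505 to 546 in WT. MYB29 stood at 75.0 to 97.1 on that scale in *eml1 eml3* and at 15.0 to 36.3 in WT.

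No indole regulator passed. MYB34 had 41.4, 101 and 52.9 in *eml1 eml3*, against 28.5, 60.7 and 27.1 in WT. MYB51 had 20.3, 17.2 and 15.1 in *eml1 eml3*, against 3.35, 33.3 and 28.2 in WT. MYB122 had 0 reads in *eml1 eml3* and 1 read in WT.

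**Figure D4:**
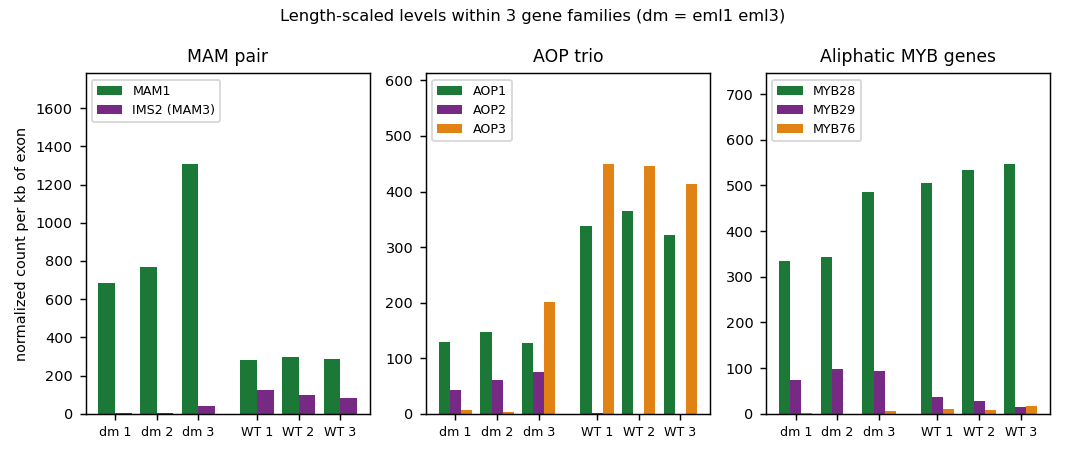
Bars show normalized counts per kb of exon in each library for the MAM pair, the AOP trio and the aliphatic MYB genes, with *eml1 eml3* (dm) left of WT. In WT libraries AOP3 reaches 413 to 449, and in *eml1 eml3* replicates 1 and 2 it is at 7.66 and 3.38.

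Between genes, levels per kb of exon in WT were highest for GSTU20, IIL1, CYP83A1 and GGP1, at means of 3641, 3323, 2879 and 2326. In *eml1 eml3* they stood at 2885, 3217, 2458 and 2415. MYB76 was at a mean of 2.54 per kb in *eml1 eml3* and 11.6 in WT.

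Several of these genes sit side by side in the genome. MAM1 and MAM3 are adjacent on chromosome 5 and share 84.8% identity over 1501 bases of transcript. MYB29 and MYB76, also on chromosome 5, share 86.3% over 394 bases, and AOP2 and AOP3 share 81.8% over 406 bases. CYP79F1 and CYP79F2, on chromosome 1, share 92.0% over 1593 bases, the highest identity found among the 40. None of the 40 has another gene at 95% identity or more over at least 150 bases, apart from overlapping genes. Exons of other genes cover 21.2% of the exon bases of BCAT4, 18.6% of AT2G31790 and 17.0% of GTR1, so those values are uncertain. Among the 5 tested genes on each side of the MAM pair, 2 of 10 were called, and 0 of 10 around the AOP trio. Around MYB29 and MYB76 it was 1 of 10. Over 6 such clusters 5 of 60 flanking genes were called, where 6.79% of all tested genes were.

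Genes of the wider pathway outside the 40 were read from the same limma fit, with Benjamini-Hochberg adjustment over all 21751 genes. Of 84 such genes 74 were tested, and 9 rose and 1 fell in *eml1 eml3*. Over all tested genes 3.69% rose and 3.10% fell, shares that also apply to each list below. Without *eml1 eml3* replicate 3 it was 11 higher and 4 lower, where 12.1% of all tested genes passed. Glucosinolates consume reduced sulfur and activated sulfate. Of 21 tested genes of sulfate uptake, assimilation and activation 3 rose and 0 fell, and the list's median log2 change was 0.07. All 3 encode APS reductases, which commit sulfate to reduction. APR3 (AT4G21990) had 2534, 2453 and 2206 in *eml1 eml3*, against 1201, 1528 and 1096 in WT (log2 change 0.92 ± 0.14 SE, limma adjusted p = 0.00412). APR1 (AT4G04610) had 2410, 2523 and 2484 in *eml1 eml3*, against 1516, 1623 and 1372 in WT (limma adjusted p = 0.00452). APR2 had 1202, 1340 and 862 in *eml1 eml3*, against 667, 688 and 734 in WT (limma adjusted p = 0.043). When libraries were left out in turn, APR2 lost its call without any one except *eml1 eml3* replicate 3 (0.55 to 0.72). It also lost it after rescaling to one total (0.62), among other settings, and 49.1% of its exon bases overlap other genes. The APS kinase genes, which make activated sulfate, went both ways and did not pass. Their log2 changes were 0.38 ± 0.12 for APK, 0.48 ± 0.19 for AKN2, -0.27 ± 0.24 for APK3 and -0.83 ± 0.25 for APK4 (SE).

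Of 5 genes listed under methionine synthesis 2 rose and 0 fell, where 3.69% and 3.10% of all tested genes did. MTO2 in this list encodes threonine synthase, an enzyme of a competing branch. MTO1 (AT3G01120), cystathionine gamma-synthase, which commits carbon to methionine, had 9420, 10378 and 10299 in *eml1 eml3*, against 5334, 6501 and 6225 in WT (log2 change 0.74 ± 0.11 SE, limma adjusted p = 0.00375). ATMS1 (AT5G17920), methionine synthase, had 116226, 129488 and 106144 in *eml1 eml3*, against 62057, 76394 and 73738 in WT (limma adjusted p = 0.0187). ATMS1 lost its call without WT replicate 1 (0.64) or 2 (0.79), without *eml1 eml3* replicate 1 (0.73) or 2 (0.66) and with no filter on low values. The other genes of the list did not pass. CBL had 1619, 1464 and 1605 in *eml1 eml3*, against 1778, 1784 and 2051 in WT (log2 change -0.26 ± 0.12 SE). MS2 had 8770, 11024 and 10621 in *eml1 eml3*, against 7565, 8132 and 8648 in WT. The log2 changes of MS2 and MTO2 were 0.32 ± 0.12 and 0.25 ± 0.13 (SE).

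No call fell among the 8 tryptophan synthesis genes, 0 each by limma, edgeR and DESeq2. An unadjusted limma p below 0.05 belonged to 2 of them, and to 4684 of all 21751 tested genes. ASA1, an anthranilate synthase subunit, had 497, 463 and 291 in *eml1 eml3*, against 584, 711 and 660 in WT. AT2G04400 had 992 to 1113 in *eml1 eml3* and 767 to 890 in WT. Of 3 camalexin genes 1 was tested, CYP71A12, at 51.7 to 102 in *eml1 eml3* and 38.6 to 41.7 in WT, and it passed by none of the tools.

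The 17 tested genes of other synthesis and side-chain steps likewise gave 0 calls by limma, edgeR or DESeq2. An unadjusted limma p below 0.05 was found for 8 of them and for 4684 of all 21751 tested genes. The smallest p belonged to AT1G12160, a flavin monooxygenase, with 46.3, 40.5 and 35.3 in *eml1 eml3*, against 5.03, 16.7 and 0 in WT. The next was GSTF9, with 4483, 4788 and 7072 in *eml1 eml3*, against 7712, 7245 and 6944 in WT. GSTF9 had a log2 change of -0.45 ± 0.16 (SE). Without *eml1 eml3* replicate 3 it was called lower, at -0.65, the 1 call of its list, where 12.1% of all tested genes passed. Among 15 tested other regulators and transporters 1 rose and 1 fell, where 3.69% and 3.10% of all tested genes did, and DESeq2 called 4. Without *eml1 eml3* replicate 3 it was 2 higher and 3 lower, where 12.1% of all tested genes passed. Newly called in that fit were ATSDI1 (1.35), higher, and UMAMIT29 (-1.12) and MYB118 (-2.12), lower. The genes called with all libraries are both UMAMIT genes, and members of that family are known to export glucosinolates. UMAMIT31 (AT4G01440) had 412, 558 and 507 in *eml1 eml3*, against 218, 289 and 126 in WT (limma adjusted p = 0.0267). UMAMIT30 (AT4G01450) had 45.4, 26.3 and 83.2 in *eml1 eml3*, against 171, 136 and 171 in WT (limma adjusted p = 0.036). UMAMIT31 lost its call without WT replicate 1 (1.35) or 3 (0.96) and without *eml1 eml3* replicate 1 (1.41) or 2 (1.19). UMAMIT30 lost its call, among other settings, without any one library except *eml1 eml3* replicate 3 (-1.86 to -1.35) and with no filter on low values (-1.75). MYC2, a bHLH partner of the MYB regulators, was listed at 0 in all libraries, and 98.5% of its exon bases overlap a neighbour, so it cannot be read here. Its relatives MYC3 and MYC4 had 1732 to 1848 and 1748 to 2037 in *eml1 eml3*, against 1788 to 1971 and 1473 to 1878 in WT.

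Jasmonate induces glucosinolate synthesis, and of 7 jasmonate response genes 3 rose and 0 fell. Over all tested genes 3.69% rose and 3.10% fell. VSP2 (AT5G24770), a vegetative storage protein, had 28114, 27110 and 48061 in *eml1 eml3*, against 4628, 4914 and 3937 in WT (log2 change 2.89 ± 0.20 SE, limma adjusted p = 2.4e-05). VSP1 (AT5G24780) had 85472, 81208 and 76220 in *eml1 eml3*, against 26214, 28428 and 25370 in WT (limma adjusted p = 4.79e-05). JAZ1 (AT1G19180), a repressor of jasmonate responses, had 2443, 2195 and 2473 in *eml1 eml3*, against 1421, 1698 and 1585 in WT (limma adjusted p = 0.0153). JAZ1 lost its call without *eml1 eml3* replicate 1 (0.57). Its relatives JAZ5 and JAZ10 went opposite ways and did not pass, with log2 changes of 0.78 ± 0.36 and -0.70 ± 0.41 (SE). JAZ10 had 153, 118 and 49.1 in *eml1 eml3*, against 138, 151 and 187 in WT. LOX2 and AOS, enzymes of jasmonate synthesis, did not pass, with log2 changes of -0.21 ± 0.15 and 0.34 ± 0.18 (SE). AOS passed without *eml1 eml3* replicate 3 (0.53).

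**Figure D5:**
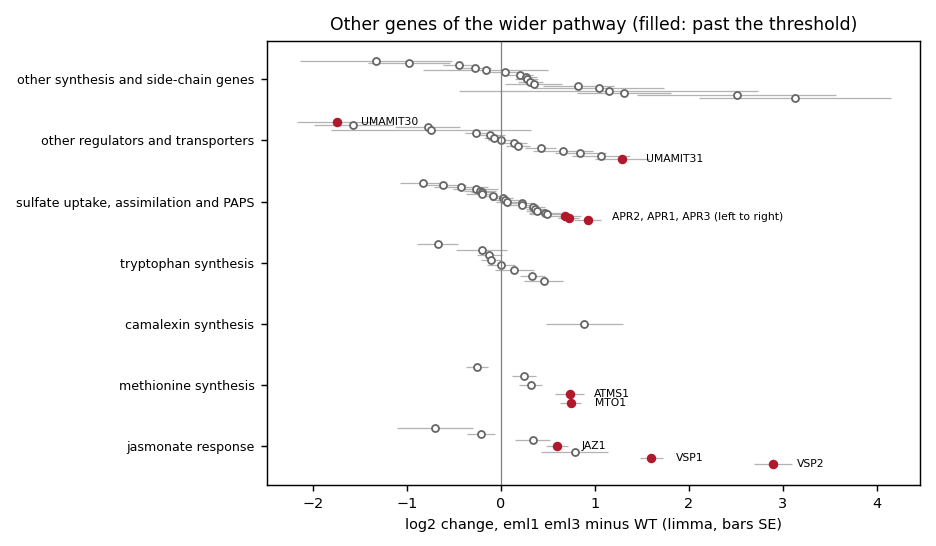
Points are tested genes of each list outside the 40, with the log2 change of *eml1 eml3* minus WT on the x axis and bars of 1 SE. The 10 filled points passed the threshold, 9 of them to the right of 0.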

How the data were processed

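RNA-seq libraries of *eml1 eml3* and WT siliques, 3 each, were compared. The authors deposited a size-factor scaled signal, made from counts per gene (from the values and the file's name). The submitters' processing notes list DESeq2, featureCounts, Subread, SAMtools, STAR 2.5.2a and Trim Galore, without their roles. Build, annotation and strand setting were not given in the sources used here, and no coordinates are printed. Dividing by each library's step size recovered whole reads for 100% of values, within 1e-06. From the other deposited table the authors' log2 fold changes were used, but not the authors' p-values, Wald score or mean signal.

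Genes with a mean of at least 10 were tested with limma 3.58.1 in R 4.3.3 on log2(value + 1) with a variance trend, *eml1 eml3* minus WT (two-sided). P-values were adjusted by Benjamini-Hochberg and read at 0.05. That scale understates changes of low genes. Printed folds are ratios of group means. Counts of reads cover counting error only. Alternatives, 17 in all, were pseudocounts of 0.5 and 5, filters, scalings, a robust prior, a replicate block, edgeR 4.0.16 (quasi-likelihood, with its filter), DESeq2 1.42.0 and leaving out each library. The limma script was tested on simulated counts. Calls lost under the block are named in the closing section alone. Members and lists were chosen with earlier results of these data known. All 40 members are described, and from each other list up to 4 genes past the threshold, or otherwise the 2 with the smallest p. MYC2, MYC3, MYC4, ATSDI1, UMAMIT29, MYB118, SHP1, AGL8, JAZ5, JAZ10, LOX2 and AOS were added after their values were seen. The same holds for MTO2, MS2, CBL, APK, AKN2, APK3 and APK4. Symbols, exon lengths, overlaps and neighbours came from the RefSeq TAIR10.1 annotation, which held 37051 of 37336 IDs, and similarity from BLAST 2.17.0.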

Additional observations from a re-analysis of the deposited data

How the results depend on the processing

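Among the 38 tested glucosinolate genes, calls numbered 3 to 16 when each library was left out in turn, the 16 being without *eml1 eml3* replicate 3. Over all tested genes the range was 571 to 2613, and over the wider pathway genes 5 to 15. On the recovered reads, DESeq2 called 2365 of all genes and edgeR 1403, against 1476 in limma. MAM1, AOP1 and AOP2 kept their calls and directions under all 17 alternatives, and no called gene changed direction. Same-numbered libraries deviated from their group means with correlations of -0.08, -0.002 and -0.17. Their recovered depths were close. In *eml1 eml3* and WT these were 39246167 and 38196040 reads for replicate 1, and 31569842 and 31503946 for replicate 2. For replicate 3 they were 26771227 and 27046107. Whether replicate numbers mark a shared batch was not tested. With the replicate block, limma called 7 of the 38 and edgeR 4 (1203 and 1009 of all genes, 10 and 8 of the wider pathway genes). The edgeR block left MAM3, AOP3, MYB29 (1.82), UMAMIT30 (-1.76) and APR2 (0.68) uncalled, and the limma block APR2. Rescaling to one total moved the median of all genes to -0.06. With 3 libraries per group, moderate differences can miss the threshold, and a gene that did not pass is not shown to be unaltered. Genes under about 20 normalized counts, such as MYB51, MYB76 and CYP81F2, rest on few reads.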

Other observations

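Some glucosinolate genes outside the 40, chosen after their values were seen, were highest in replicate 3 among the *eml1 eml3* libraries. The wider pathway as a whole was not: of its 74 tested genes 30 were highest and 29 lowest there. That is 40.5% highest, against 40.1% of all tested genes. AT2G25450, annotated as an oxygenase, had 712, 689 and 3476 normalized counts in *eml1 eml3* replicates 1, 2 and 3, against 459, 581 and 417 in WT. SCPL17 and BZO1 take part in making benzoylated glucosinolates of seeds. SCPL17 had 4.87, 6.08 and 176 in *eml1 eml3*, against 45.3, 13.7 and 0 in WT. BZO1 had 0, 4.05 and 42.8 in *eml1 eml3*, against 6.71, 0 and 0 in WT. MYB118, a seed regulator, had 69.8, 85.1 and 243 in *eml1 eml3*, against 379, 258 and 396 in WT, and did not pass (limma adjusted p = 0.0526), though it passed without replicate 3 at a log2 change of -2.12.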
